A study of Mus musculus with 24 samples.

Results

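The Hist1, Hist2, Hist3 and Hist4 genes encode the linker histone H1 and the core histones H2A, H2B, H3 and H4 in tightly packed clusters. They were taken as all protein-coding genes of the GENCODE vM21 basic annotation whose names begin with Hist1, Hist2, Hist3 or Hist4, which gave 67 of 21755 protein-coding genes on the 19 autosomes and X. The mark examined was trimethylation of lysine 4 of histone H3 (H3K4me3), mapped by ChIP-seq in C127 cells, an established mouse mammary epithelial line, after formaldehyde crosslinking and with an antibody made in-house. The C127 H3K4me3 group had 3 replicates, and their reads were reduced by the authors to 1 list of 13451 peaks, each found in every replicate. The 21 other samples of the series were not analysed here. The list holds positions in mm10 without heights, so replicate error cannot be given, the depth behind each peak is unknown, and no test was run. Intervals in brackets are 95% Wilson intervals, which cover counting error over genes only.

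Most of these genes are replication-dependent: they are transcribed in S phase, lack introns, and end their mRNAs in a conserved stem-loop in place of a poly(A) tail. NPAT, a cofactor activated by cyclin E and CDK2, drives their transcription in nuclear bodies at the clusters, and promoter elements such as the CCAAT box, the TATA box and an octamer bound by POU2F1 recur among them. H2A and H2B genes often lie head to head, with a short stretch of DNA serving both start sites. H3K4me3 is placed at the CpG islands of active promoters by SET1 and MLL complexes, which is why peaks at these promoters were examined gene by gene. Of cell type markers, all 6 epithelial genes examined (Epcam, Cdh1, Krt8, Krt18, Krt5 and Krt14) lacked a peak at the start site. All 4 mesenchymal genes (Vim, Fn1, Twist2 and Snai1) had 1, compared with 49.4% of all protein-coding genes. The lists are short and were chosen with earlier results of these data known. These counts therefore cannot test the epithelial label of the line and do not settle its identity.

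The sequences below are single examples of promoters with and without the mark, not a comparison of the groups. They come from GRCm38, the build of the list, and are printed 5′ to 3′. Capitals mark a CCAAT box, spelled CCAAT, on either strand. They also mark a TATA box, searched as TATAAA, the octamer ATTTGCAT bound by POU2F1, and the H1 box, searched as AAACACA. The first is the stretch between the start sites of a pair inside the widest histone peak, Hist1h2ag and Hist1h2bj, at chr13:22042945-22043213, plus strand. The second lies between the closest pair of start sites, Hist1h2ae and Hist1h2bg, at chr13:23571221-23571395, plus strand, and was not covered by a peak. The others are the 200 bp before the start sites of Hist1h1a (chr13:23763466-23763665, plus strand), which had the widest peak of the H1 genes, and of the testis gene Hist1h1t (chr13:23695614-23695813, plus strand), which had no peak.
Hist1h2ag to Hist1h2bj: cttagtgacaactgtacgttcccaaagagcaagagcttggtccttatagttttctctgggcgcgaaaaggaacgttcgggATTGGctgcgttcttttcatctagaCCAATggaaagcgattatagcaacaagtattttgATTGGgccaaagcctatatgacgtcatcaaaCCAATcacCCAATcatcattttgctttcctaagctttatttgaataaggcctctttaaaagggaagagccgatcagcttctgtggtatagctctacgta
Hist1h2ae to Hist1h2bg: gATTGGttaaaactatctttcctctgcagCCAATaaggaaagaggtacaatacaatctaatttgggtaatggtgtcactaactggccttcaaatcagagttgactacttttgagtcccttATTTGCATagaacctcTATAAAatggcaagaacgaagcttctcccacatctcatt
Hist1h1a: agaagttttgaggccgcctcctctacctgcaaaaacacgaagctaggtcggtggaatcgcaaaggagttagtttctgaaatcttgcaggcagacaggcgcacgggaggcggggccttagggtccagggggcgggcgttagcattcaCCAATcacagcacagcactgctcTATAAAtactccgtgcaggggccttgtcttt
Hist1h1t: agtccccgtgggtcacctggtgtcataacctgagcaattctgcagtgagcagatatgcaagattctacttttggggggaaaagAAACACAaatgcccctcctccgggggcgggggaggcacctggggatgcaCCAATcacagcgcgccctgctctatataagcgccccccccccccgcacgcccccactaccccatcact
None of the 50-bp words in these 4 stretches occurred a second time in the genome. The Hist1h2ag to Hist1h2bj stretch (269 bp) held 5 CCAAT boxes and 10 CpG sites. The shorter Hist1h2ae to Hist1h2bg stretch (175 bp) held CCAAT boxes, an octamer, a TATA box and 1 CpG site. Within 250 bp either side of their start sites, Hist1h2ae and Hist1h2bg had 26 and 22 CpG sites. Over all histone genes the median was 32 with a peak and 34 without.

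A peak lay within 250 bp of a start site of 43 of the 67 histone genes (64.2%, interval 52.2% to 74.6%), compared with 49.4% of all protein-coding genes. Among the H4 genes, which encode the least variable core histone, 11 of 13 had a peak (84.6%, 57.8% to 95.7%). The share was 4 of 6 among the linker histone genes (H1), 11 of 18 among the H2A genes (61.1%, 38.6% to 79.7%), 10 of 18 among the H2B genes (55.6%, 33.7% to 75.4%) and 7 of 12 among the H3 genes (58.3%, 31.9% to 80.7%). The intervals of all 5 classes overlap, and their order depended on the distance: counting only peaks over the start site, H1 was at 66.7% and H4 at 61.5%, and within 1000 bp H3 was at 100% and H4 at 84.6%. Nearly all histone genes had an island-like promoter (63 of 67, against 61.6% of coding genes), and 40 of those 63 had a peak, compared with 73.3% of all coding genes with such a promoter. The 63 include 10 genes with over 50% of the 50-bp words within 250 bp of the start site recurring in the genome. Of these 10, 1 had a peak, and without them 42 of 57 histone genes did (73.7%). The 57 include genes without an island-like promoter, and the 73.3% includes coding genes with recurring words, so these shares are not matched. The authors discarded reads without a unique position, and the part of this step in the difference was not tested.

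The 24 genes without a peak fell into groups by how far the nearest peak was. For 12 of them it lay only 251 to 600 bp from the start site, a position shared by 0.377% of all protein-coding genes. These were Hist1h2an (251 bp), Hist1h3i (254 bp), Hist1h2ac (268 bp), Hist1h2bl (270 bp), Hist1h2bp (284 bp), Hist1h2bn (286 bp), Hist1h3d (296 bp), Hist1h2bg (332 bp), Hist1h3b (365 bp), Hist2h3c2 (490 bp), Hist1h2ae (508 bp) and Hist2h3c1 (528 bp). They encode core histones H2A, H2B and H3, and no H1 or H4 gene was among them. Just inside the limit of 250 bp were Hist1h2ai (245 bp), Hist1h2ak (246 bp) and Hist1h2bc (248 bp), so the count of genes with a peak turns on a few bp for several members. In 11 of the 67 genes, among them Hist1h2ai and Hist1h2ak, the annotated start site is the start codon. Distances of those genes therefore run from the coding sequence and depend on the annotation. RefSeq start sites differed from those used here by a median of 10 bp (quartiles 0 and 31.5 bp). Within 600 bp, 55 of 67 genes (82.1%, 71.2% to 89.4%) had a peak, and all 12 H3 genes were among them. Within 1000 bp the share was also 82.1%, compared with 50% of all protein-coding genes.

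The other 12 genes without a peak lay farther away. Hist1h2bq, Hist1h2ao and Hist1h4m were 19367, 19099 and 17818 bp from the nearest peak, and Hist1h4n, Hist1h2ap and Hist1h2br were 1405, 2716 and 2952 bp from it. These 6 genes form 2 blocks of an H2A, an H2B and an H4 gene, in which 98.96% and 99.15% of the 50-bp words occur elsewhere in the genome, and no base of either block was covered by a peak. The authors discarded reads without a unique position, so the lack of a peak in these blocks does not show that the mark is absent. Hist2h2aa2, 1639 bp from a peak, also belongs to a duplicated stretch. The testis genes Hist1h1t (1653 bp), Hist1h2ba (169070 bp) and Hist1h2aa (169376 bp), which encode variants that enter chromatin during spermatogenesis, all lacked a peak. Hist3h2ba, an H2B gene of the small Hist3 locus, was 4586 bp from the nearest peak.

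The last of these genes, the linker histone gene Hist1h1d, had no peak within 250 bp in either annotation, but its distance from a peak differs between them. Its GENCODE start site, 1269 bp downstream of the nearest peak, lies 1828 bp before the start codon in a stretch with 1 CpG site within 250 bp either side. The RefSeq start site lies 1770 bp further downstream, and a peak of 2423 bp (chr13:23555410-23557832) begins 320 bp beyond the start codon. Hist1h2be has the opposite arrangement. Its start site in both annotations lies in the peak of the linker histone gene Hist1h1e, 35168 bp from its own start codon, and the codon itself is 275 bp from a peak of 4228 bp at Hist1h4d. With 1 RefSeq start site per gene, 41 of the 67 genes (61.2%) had a peak.

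**Figure D1:**
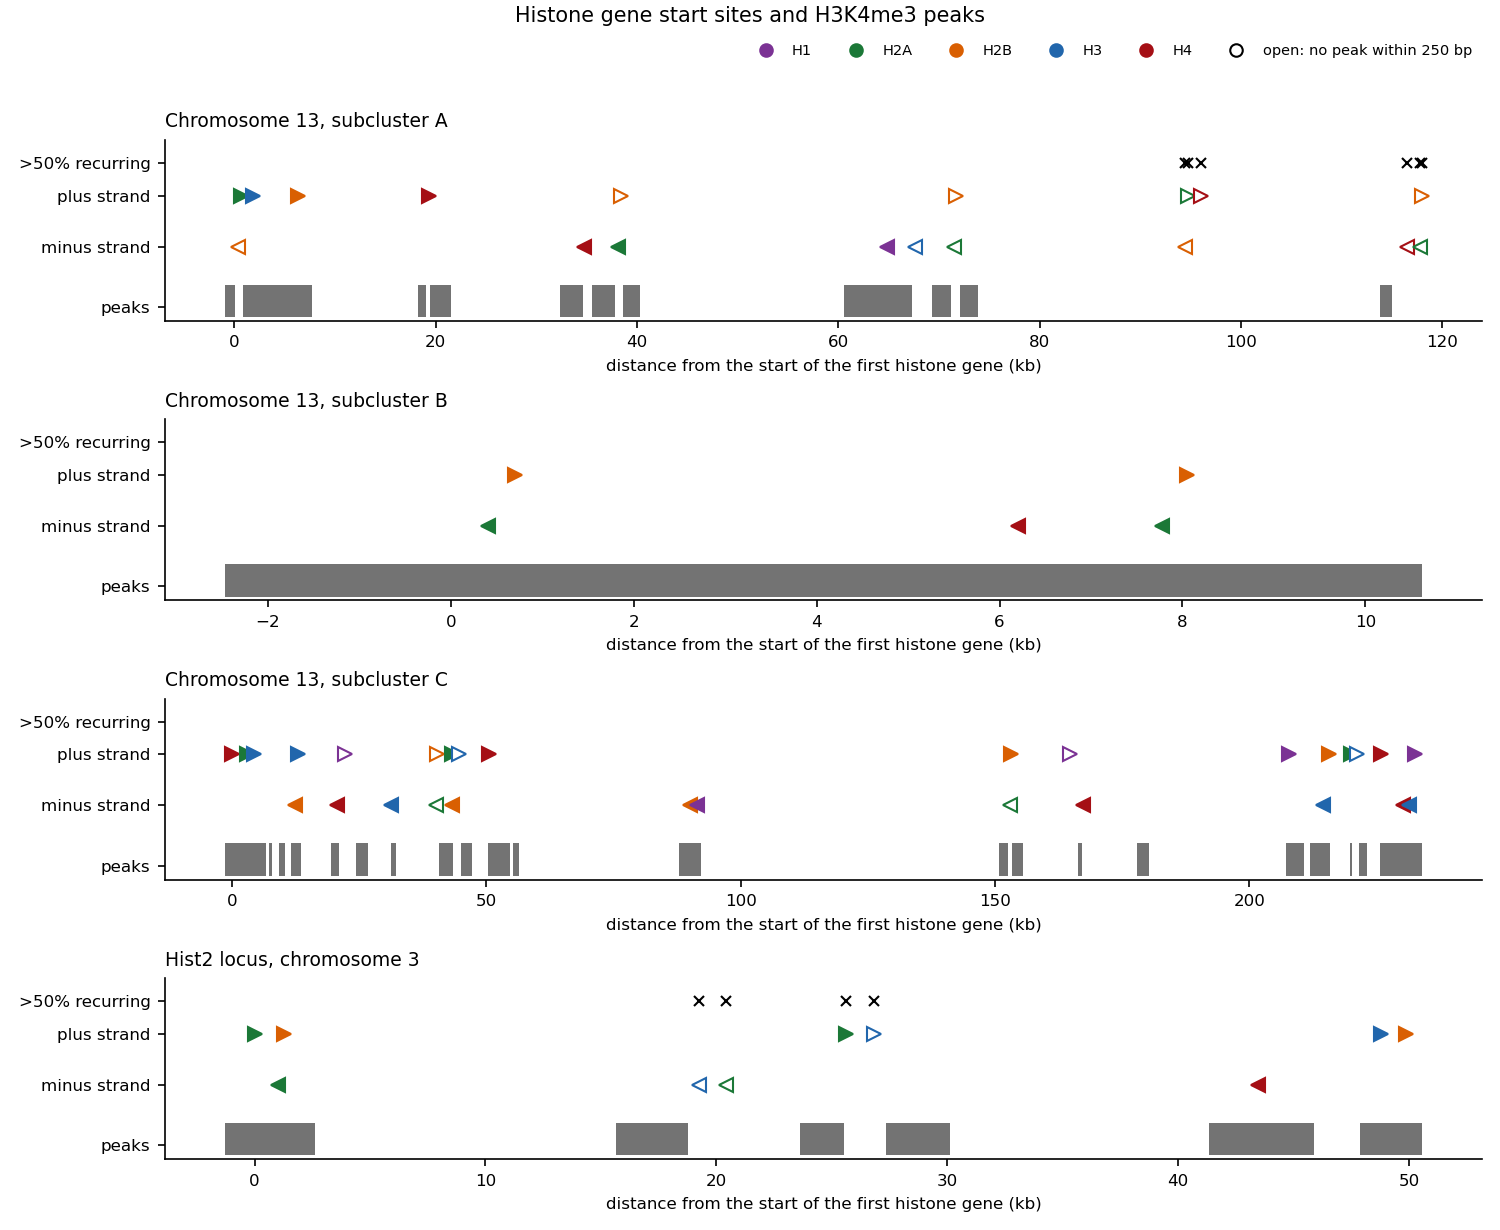
Histone gene start sites and H3K4me3 peaks in the 3 larger groups of histone genes on chromosome 13 and in the Hist2 locus, by distance in kb from the start of the first histone gene. Triangles are start sites coloured by class and pointing along the strand, open where no peak lay within 250 bp, grey blocks are peaks, and crosses mark the 10 genes with over 50% of promoter words recurring, of which 9 are open.

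Coverage was then followed along the start sites. Of the 67 histone genes, 53.7% were covered at the start site, 52.2% at 200 bp downstream and 71.6% at 500 bp downstream. Upstream, 61.2% were covered at 600 bp and 52.2% at 300 bp. All other protein-coding genes were at 47.1% at the start site and 46.6% at 500 bp downstream. Among genes chosen for a peak within 250 bp, which sets coverage at the start site high, the 43 histone genes were at 83.7%, 81.4% and 88.4% at 0, 200 and 500 bp, and other coding genes were at 95.5%, 95.7% and 94.2%.

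In 16 of the 67 genes (23.9%, 15.3% to 35.3%) a peak covered the position 500 bp downstream but not the start site, compared with 0.625% of all coding genes. In 3 genes (4.48%) the positions 500 bp to both sides were covered and the start site was not, compared with 0.0552% of all coding genes. A peak covered the start site of 36 genes. For another 19 (28.4%, 19% to 40.1%) the nearest peak began or ended 1 to 600 bp away, compared with 0.827% of all coding genes. That peak was downstream, within the transcribed part or beyond it, in 17 of the 19, and upstream at Hist1h2ae and Hist2h2aa1. The 7 of these genes within 250 bp were Hist2h2aa1 (120 bp), Hist1h4k (137 bp), Hist1h4c (162 bp), Hist1h4j (176 bp), Hist1h2ai (245 bp), Hist1h2ak (246 bp) and Hist1h2bc (248 bp). A peak overlapped 54 of the 67 genes somewhere between start and end, including 12 of the 24 without a peak at the start site. Such overlap was not counted over all coding genes.

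**Figure D2:**
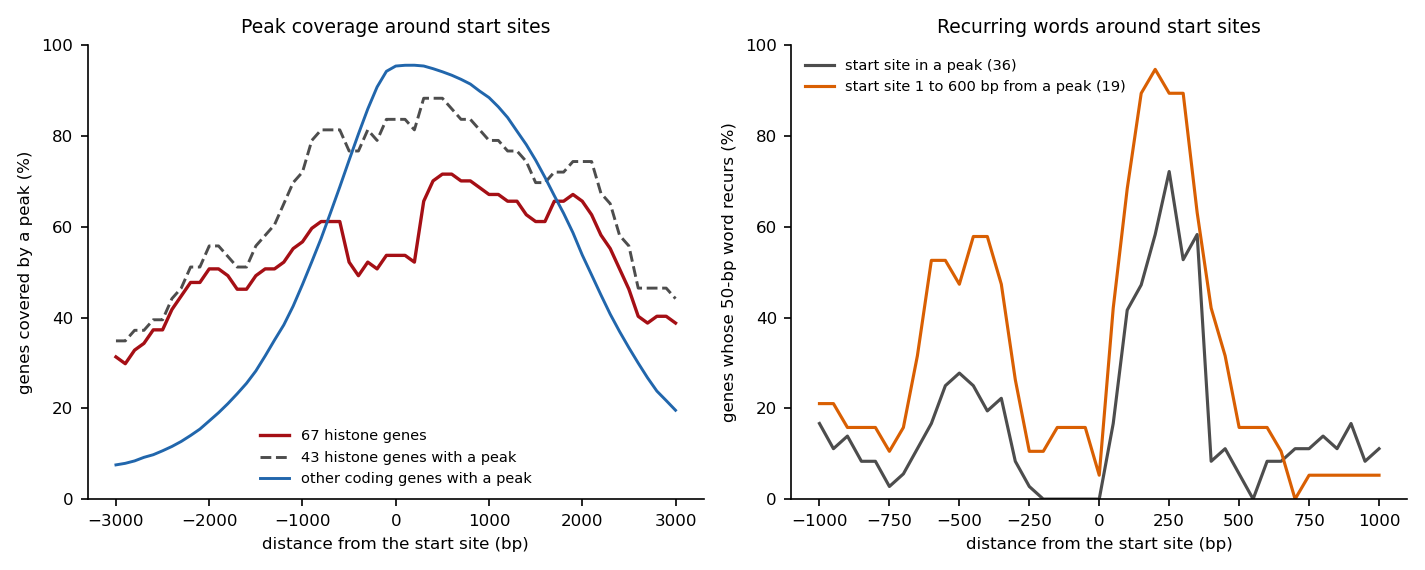
The left plot gives the percentage of genes covered by a peak at each distance in bp from the start site, for all 67 histone genes, the 43 with a peak and other coding genes with a peak. All histone genes are at 53.7% at the start site and 71.6% at 500 bp downstream, and those with a peak at 83.7% and 88.4%. The right plot gives the percentage of genes whose 50-bp word at that distance recurs in the genome, which at 200 bp downstream is 94.7% for the 19 genes beside a peak and 58.3% for the 36 inside a peak.

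The authors discarded reads without a unique position, and the part of this step in the positions of the peaks was not tested. Histone genes of a class share long stretches of coding sequence, shown here by the 50-bp word with most copies in the first 400 bp of the genes of each core class. The H2A word, at chr13:21716602-21716651 in Hist1h2ai, occurred 19 times in the genome and in 16 of the 18 H2A genes. The H2B word, at chr13:21715812-21715861 in Hist1h2bl, occurred 15 times, each in an H2B gene. The H3 word, at chr13:21717812-21717861 in Hist1h3h, was found in all 12 H3 genes, and the H4 word, at chr13:21735264-21735313 in Hist1h4j, in 11 of the 13 H4 genes.
H2A word: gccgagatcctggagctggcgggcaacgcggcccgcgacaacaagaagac
H2B word: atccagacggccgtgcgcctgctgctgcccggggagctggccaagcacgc
H3 word: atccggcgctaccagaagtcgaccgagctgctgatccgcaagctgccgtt
H4 word: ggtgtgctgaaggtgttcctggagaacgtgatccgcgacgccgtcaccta
In the example genes named, these words begin 153 to 282 bp from the annotated start site. The distance differs in other genes that hold them. The H1 genes share less, and their most frequent word occurred 3 times.

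Over 50% of the 50-bp words within 250 bp of the start site recurred elsewhere in 10 histone genes, of which 1 had a peak. That gene was Hist2h2aa1, with 79.9% recurring words and a peak ending 120 bp upstream. The other 9 were Hist1h2bq, Hist1h2ao, Hist1h2ap and Hist1h2br at 100%, Hist1h4n at 90.9%, and Hist1h4m, Hist2h3c2, Hist2h2aa2 and Hist2h3c1 at 88.9%. Among all coding genes 5.14% had such a promoter. Without these 10 genes, 42 of 57 (73.7%, 61% to 83.4%) had a peak, and all 11 remaining H4 genes were among them.

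Words were also followed along the genes. Of the 19 genes beside a peak, 94.7% had a recurring word 200 bp downstream of the start site and 89.5% at 300 bp. Of the 36 genes with the start site inside a peak, 58.3% and 52.8% did. At the start site itself, 5.26% of the first group and none of the second had a recurring word, so nearly all uncovered start sites of the first group were themselves unique. The 36 covered genes had recurring words at 47.2% to 72.2% at 150 to 250 bp downstream, where 88.9% to 97.2% of them were covered. Choosing genes with the start site in a peak sets this nearby coverage high, and its relation to recurring words was not tested.

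Peak edges were examined from the other side. The 18 peak edges that faced a start site 1 to 600 bp away had a median of 100% recurring words in the 200 bp outside the peak (quartiles 66.9% and 100%) and 55.3% in the 200 bp inside. The 64 other edges of peaks in the histone loci had a median of 0% on either side. Facing edges were picked for lying near a histone start site, where genes of a class share coding sequence. The other edges were not matched to them for position, so the contrast in words cannot be separated from position. Over 50% of the words outside recurred at 14 of the 18 facing edges and at 10 of the 64 others. At 5 of the 18 the words recurred less outside than inside, namely those facing the H4 genes Hist1h4c (11.9% outside, 55.6% inside), Hist1h4k (36.4%, 78.8%) and Hist1h4j (38.4%, 70.2%) and the H2A genes Hist1h2ak (43.1%, 47.7%) and Hist1h2ac (66.9%, 71.5%).

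The Hist2 locus holds a duplicated stretch. Its copies hold Hist2h3c2 with Hist2h2aa2 and Hist2h2aa1 with Hist2h3c1, between whose start sites 93.4% and 93.5% of words recurred and no base was covered. Peaks of 3105, 1898 and 2749 bp flanked them, and in the 200 bp outside the edges facing the copies 100%, 66.9% and 100% of words recurred. Among wholly covered genes, 93.9% of the words between start and end recurred in Hist1h3h and 90.7% in Hist1h2ah.

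**Figure D3:**
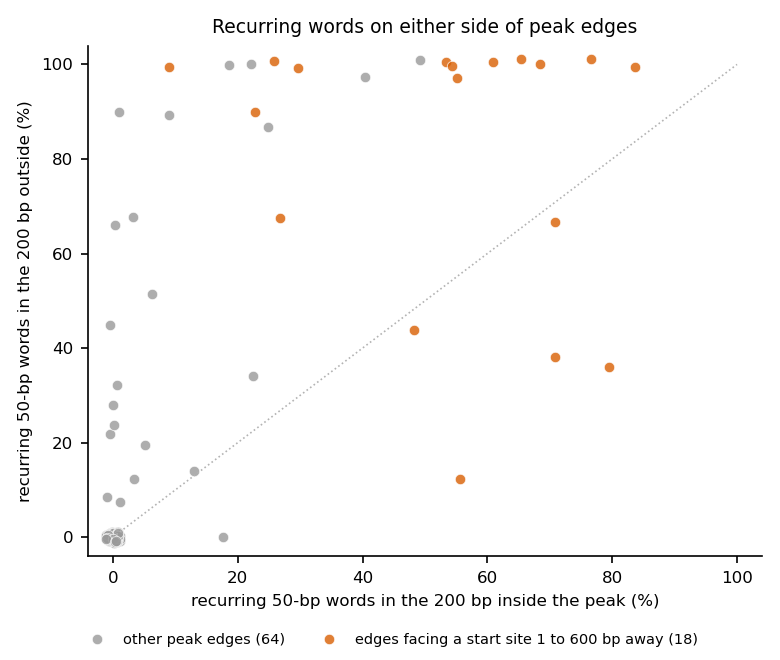
Percentage of 50-bp words that recur in the genome in the 200 bp outside (vertical axis) and inside (horizontal axis) each of the 82 edges of peaks in the histone loci, with a small random shift so that points do not hide each other. The 18 edges facing a start site 1 to 600 bp away lie mostly at the top (median 100% outside), whereas most of the 64 other edges lie at 0 on both axes. The other edges were not matched for distance from a start site.

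Head-to-head pairs were examined next. There were 13 pairs of neighbouring histone genes with diverging start sites no more than 1000 bp apart. Of these 12 paired an H2A with an H2B gene, at distances of 176 to 306 bp, and held 24 of the 36 H2A and H2B genes. The remaining pair, Hist1h2bh with Hist1h3f, was 660 bp apart.

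Both genes shared 1 peak in 5 of the 13 pairs (38.5%, 17.7% to 64.5%), compared with 93.6% of 749 other protein-coding pairs at this distance. The histone share was 76.9% (10 of 13) when peaks up to 600 or 1000 bp from a start site were counted, and 69.2% when peaks closer than 1000 bp were merged. The 5 pairs were Hist1h2ah with Hist1h2bk, Hist1h2ag with Hist1h2bj, Hist1h2bf with Hist1h2ad, Hist2h2ac with Hist2h2be, and Hist1h2bh with Hist1h3f. In each the DNA between the start sites was covered throughout.

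In another 5 pairs a peak lay in at least 1 gene of the pair but none between the start sites. The uncovered stretch was 766 bp at Hist1h2ac with Hist1h2bc, 793 bp at Hist1h2bl with Hist1h2ai, 824 bp at Hist1h2an with Hist1h2bp and 827 bp at Hist1h2ak with Hist1h2bn. These 4 gaps were thus nearly equal in length and were each framed by a peak on both sides. They held 54 to 73 CpG sites, 37.4% to 47.9% of their words recurred, and each contained a run of unique sequence of 423 to 462 bp across both start sites. At the fifth pair, Hist1h2ae with Hist1h2bg, printed above, a peak was present on the Hist1h2bg side alone.

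The last 3 pairs had no peak in either gene. In Hist1h2bq with Hist1h2ao and Hist1h2ap with Hist1h2br every word between the start sites recurred. In the testis pair Hist1h2ba with Hist1h2aa none did. Between the start sites of the other 10 pairs no word recurred either, whether covered or not. A peak was assigned to 13 of the 26 genes in head-to-head pairs (50%) and to 30 of the 41 other histone genes (73.2%, 58.1% to 84.3%).

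**Figure D4:**
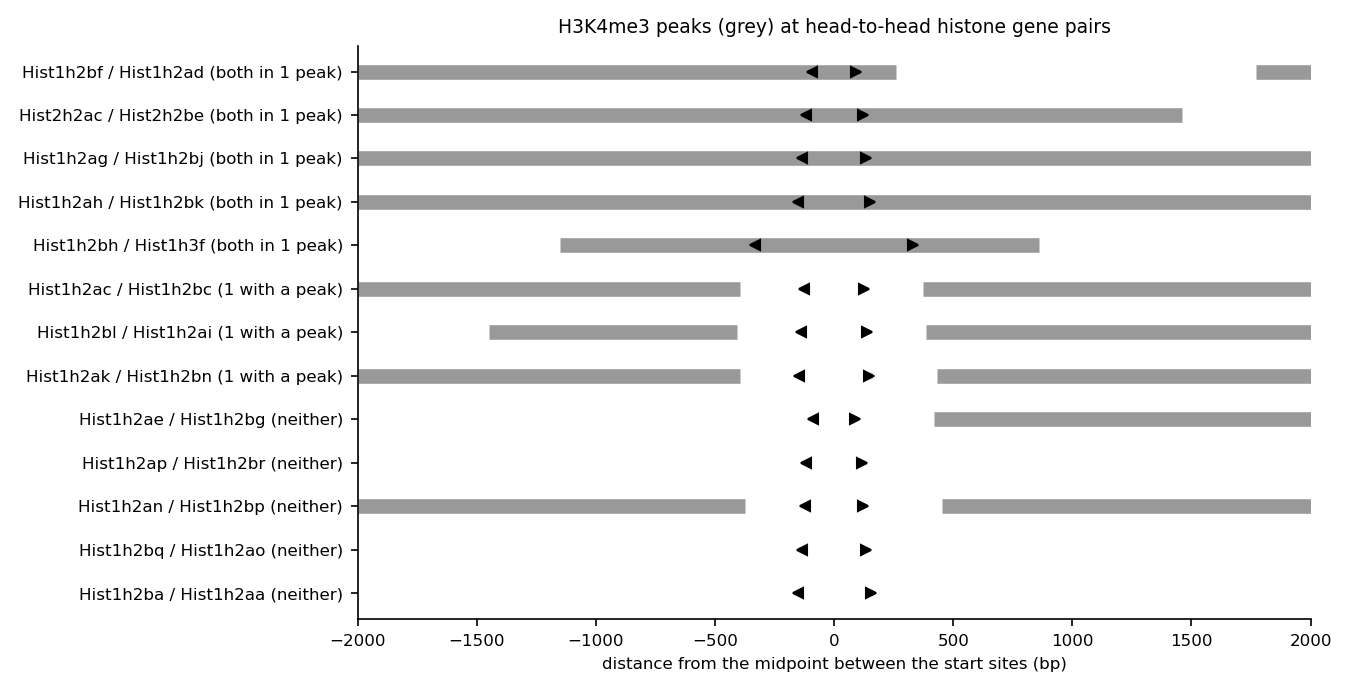
H3K4me3 peaks (grey bars) at the 13 head-to-head histone gene pairs, by distance in bp from the midpoint between the start sites (black triangles pointing along each gene). In 5 pairs the stretch between the start sites is covered, in 4 a gap of 766 to 827 bp between 2 peaks is centred on it, in 1 a peak lies on 1 side, and in 3 no peak lies in either gene.

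The 43 genes with a peak were served by only 25 peaks. A peak held 1 histone gene in 15 cases, 2 in 5, 3 in 3, 4 in 1 and 5 in 1. Thus 28 of the 43 genes (65.1%, 50.2% to 77.6%) shared their peak with another histone gene, compared with 23.8% of all coding genes with a peak that shared it with another coding gene.

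The widest histone peak spanned 13087 bp (chr13:22032696-22045782) and held Hist1h2ah, Hist1h2bk, Hist1h4i, Hist1h2ag and Hist1h2bj, that is 2 head-to-head pairs and an H4 gene between them. It was the only peak of the list with 5 protein-coding genes and was wider than 99.8% of 9679 other peaks at coding start sites. Next was a peak of 8197 bp (chr13:23756890-23765086) over Hist1h4b, Hist1h4a, Hist1h3a and the linker histone gene Hist1h1a. A peak of 8120 bp (chr13:23529658-23537777) held Hist1h4h, Hist1h2af and Hist1h3g. These 3 peaks each combined genes of at least 3 classes within 8513 bp or less.

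Other wide peaks held fewer genes. The peak of 7251 bp at Hist3h2a also held Trim17, a ubiquitin ligase gene, and that of 6791 bp held Hist1h2ai, Hist1h3h and Hist1h2bm. Hist1h1b, a linker histone gene, lay alone in 6776 bp, Hist2h4 in 4579 bp and Hist1h4d in 4228 bp. Hist1h2be and Hist1h1e shared 4371 bp. A peak of 3878 bp in the Hist2 locus held Hist2h2ab, Hist2h2ac and Hist2h2be together with Bola1, a mitochondrial protein gene. At the other end were Hist1h2ab (335 bp), Hist1h4c (826 bp), Hist1h3e (1109 bp), Hist1h4f (1494 bp) and Hist2h2aa1 (1898 bp).

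The median width of the 25 peaks was 2821 bp (interval of the median 2110 to 4371 bp), compared with 3123 bp for other peaks at coding start sites. The peaks are grouped here by all the coding genes they hold, histone or not. The 14 with 1 coding gene had a median of 2185 bp, against 3014 bp for other peaks with 1 coding gene, and the 6 with 2 coding genes had a median of 3338 bp, against 3886 bp. The 2 with 3 coding genes went the other way, with a median of 7456 bp against 5112 bp. For the 2 with 4 coding genes it was 6038 bp against 9240 bp. Neighbouring histone genes in the same peak had start sites a median of 1196 bp apart (185 to 5492 bp, 18 pairs of neighbours). Neighbours in separate peaks were 7783 bp apart (3322 to 40354 bp, 10 pairs).

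**Figure D5:**
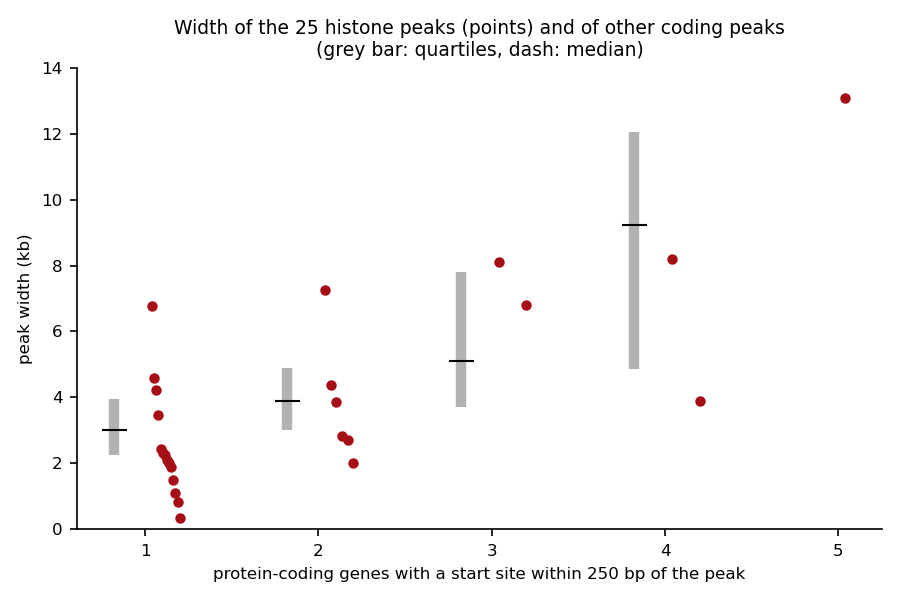
Width in kb of the 25 histone peaks (points) by the number of protein-coding genes with a start site within 250 bp of the peak, beside the median (dash) and quartiles (grey bar) of other coding peaks with 1 to 4 genes. The widest histone peak, at 13087 bp, is the only histone peak with 5 genes, and most histone peaks with 1 gene lie under the median of 3014 bp.

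The 54 genes of chromosome 13 spread over 2219089 bp and fell into 4 subclusters separated by more than 100000 bp. Subcluster A (chr13:21715763-21836665) held 18 genes, of which 7 had a peak, and peaks covered 22.9% of it. Its missing genes were the 6 of the recurring blocks and 5 at 251 to 286 bp from a peak, namely Hist1h2bl, Hist1h2bn, Hist1h3i, Hist1h2an and Hist1h2bp.

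Subcluster B (chr13:22035164-22043676) held 5 genes in 8513 bp, all inside the widest peak. Subcluster C (chr13:23531050-23764406) was the largest, with 29 genes of which 22 had a peak (75.9%, 57.9% to 87.8%), and peaks covered 23.2% of its 233357 bp. Subcluster D (chr13:23933773-23934851) was the testis pair Hist1h2ba and Hist1h2aa, 170490 bp beyond subcluster C and without a peak. For scale, peaks covered 1.46% of the genome.

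The other genes inside the chromosome 13 span were mostly vomeronasal receptor genes, which serve pheromone sensing. Of 49 other protein-coding genes there, 5 had a peak (10.2%, 4.44% to 21.8%), compared with 49.4% of all protein-coding genes. None of the 36 vomeronasal receptor genes had a peak. Among the 13 genes that were neither vomeronasal nor olfactory receptors, 5 did (38.5%, 17.7% to 64.5%). The 5 were Zfp184, Prss16, Zfp322a, Abt1 and Hfe, and Hfe, an iron regulator, was the only non-histone gene inside a subcluster. In the histone loci 16 further peaks reached no histone start site within 250 bp. Of these 11 overlapped a histone gene and 1 was the peak of Hfe.

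On the other chromosomes, 7 of 10 Hist2 genes had a peak. Besides those named above they were Hist2h3b and Hist2h2bb, which shared 2705 bp. The Hist3 locus had a peak at Hist3h2a and none at Hist3h2ba, and the only Hist4 gene, Hist4h4, lay in a peak of 2421 bp.

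CpG counts overlapped between genes with and without a peak, at 9 to 66 and 1 to 69 sites within 250 bp of the start site. The median was 32 in the 43 genes with a peak and 34 in the 24 without, against 26 in all coding genes and 40 in coding genes with a peak. H2B genes had the fewest (median 26) and H3 genes the most (38). The testis genes Hist1h1t, Hist1h2ba and Hist1h2aa held 18, 21 and 22.

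Promoter elements were searched on both strands in RefSeq promoters (GRCm38, 250 bases before to 50 after the start), which were found for 62 of the 67 genes. The CCAAT box stood in 53 of 62 (85.5%), compared with 37.4% of 32851 promoters. It was in every H1, H2A, H2B and H3 promoter but in 3 of 12 H4 promoters. The TATA box was in 35 of 62 (56.5%, against 13.6%). The octamer was found in 7 of 18 H2A and 6 of 16 H2B promoters and in none of the other classes, compared with 1.74% of promoters. The H1 box, named for the linker histone genes, was in 5 of 6 H1 promoters, against 7.18% of promoters. H2A and H2B genes that lie head to head share part of these windows, so their counts are not independent.

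The elements occurred in genes with and without the mark. The CCAAT box was in 31 of 38 promoters of genes with a peak and 22 of 24 without, the TATA box in 20 of 38 and 15 of 24, and the octamer in 8 of 38 and 5 of 24. Downstream of the coding sequence, a match to a set search pattern for the histone stem-loop within 200 bp was found at 46 of the 67 genes. It was found at 47 of all 21755 coding genes. Other spellings of the stem-loop were not counted, so a gene without a match may still hold a stem-loop.

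Genes that supply replication-independent histones or act on histone transcripts mostly had a peak. Peaks were found at 49.4% of all coding genes and at 73.3% of those with an island-like promoter, against which the lists below are read. Of 11 histone genes listed as replication-independent, 10 had a peak, the widest at H1f0 (5112 bp), H3f3a (4393 bp) and H2afy (4085 bp), and H2afy2 had none. No peak was found at 9 germline histone genes outside the clusters, namely H1foo, H1fnt, Hils1, H2bfm, H2afb1, H2afb2, H2afb3, H2al3 and H2al2a.

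Against the same 49.4%, 12 of 13 genes for histone gene transcription had a peak, with Yy1 (5707 bp), Nfya (5490 bp), a subunit of the CCAAT-binding factor NF-Y, and Ccne2 (5092 bp) the widest. Npat itself had a peak of 5071 bp, and Gon4l was the only gene of this list without 1. All 12 genes for histone mRNA processing had a peak, the widest at Srrt (5511 bp), Ncbp2 (5175 bp) and Upf1 (5015 bp), and Slbp, the stem-loop binding protein, had 3518 bp. All 15 histone chaperone genes had a peak, led by Rbbp4 (4667 bp), Chaf1a (4364 bp) and Daxx (4309 bp).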

How the data were processed

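H3K4me3 ChIP-seq of C127 cells (3 replicates) was analysed, and the 21 other samples of the 24 in the series were not analysed here. According to the methods of the study, the authors aligned reads to mm10 with bowtie2, kept uniquely placed reads, removed PCR duplicates with SAMtools, called peaks with MACS in each replicate against its control, kept those present in all replicates and merged close ones. The submitters' own notes list the same tools and build (MACS as MACS2) without versions. The deposited file gives chromosome, start and end of each peak in bp (3 columns, smallest gap 251 bp), with no score or count, so depth per sample and peak strength are unknown.

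Starts were made 1-based. A gene had a peak when one came within 250 bp of any basic start site (GENCODE vM21, GRCm38). Widths, coverage, head-to-head pairs (start sites within 1000 bp), subclusters (gaps over 100000 bp) and CpG counts were computed from positions and reference sequence. An island-like promoter held, within 250 bp of the start site, a window of 200 bp with 50% GC or more and CpG sites at 0.6 or more of the number its base composition gives. A word recurred when its 50 bp occurred more than once in 66 primary sequences on either strand, and a promoter was multi-copy when over 50% of its words did. The assignment and the word count were tested on simulated data. Named are all members without a peak, those in the 10 widest and 5 narrowest peaks or in peaks shared by 3 or more, both members of pairs with 1 peak, and all Hist2, Hist3 and Hist4 members. Of the other lists the members without a peak and the 3 widest are named, and Npat and Slbp were added after their values were seen. 3 genes with these names that are not protein-coding were left out, as were H3f4 and Symplk, not found as coding genes. The members, lists and rules were chosen with earlier results of these data known. Alternatives were other distances, start sites, annotations, peak widths, merging, word lengths and windows. Python 3.11.15, numpy 2.4.6, pandas 2.3.3, scipy 1.17.1, numba 0.67.0 and matplotlib 3.10.9 were used. The promoter sequence of an H4 gene is not reported here.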

Additional observations from a re-analysis of the deposited data

How the results depend on the processing

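Shares were compared with the 95% interval of the reported value and counts with 1.5 times it. Of 101 alternative values 85 stayed within these limits. With a start-site distance of 1000 bp the share of histone genes with a peak was 82.1%, of H2B genes 77.8%, of H3 genes 100% and of head-to-head pairs in 1 peak 76.9%, since peaks beside the start site are then counted. Among all coding genes it was 50% at that distance. The following 4 alternatives were chosen after seeing the data. A distance of 600 bp gave 82.1% of genes and 76.9% of pairs, a peak anywhere in the gene 80.6% of genes, peaks closer than 1000 bp merged 69.2% of pairs, and RefSeq start sites stayed within the limits. Without multi-copy promoters the share of H4 genes was 100%. A gap of 250 kb gave 2 subclusters in place of 4. The share of all coding genes was 47.7% with 1 start site per gene and 48.2% with peaks of at least 1000 bp. In genes with a peak, the median share of recurring words was 21.9% as reported, 26.4% for words of 36 bp, 2.98% for words of 100 bp and 13.9% in a window of 1000 bp, and the CpG median was 30.5 per 250 bp in a window of 500 bp. In genes without a peak the share of recurring words was higher in each case (37.4%, 41.1%, 29.1% and 30%). No paired analysis was possible because the 3 replicates were deposited as 1 pooled list and no result comes from a test, and no replicate could be left out. Unknown depth limits every absence of a peak.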
